A study of Mus musculus with 2 samples.

Results

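This report covers 10 genes of lipid droplet coating and fat breakdown, measured in epithelial cells of mouse intestine on 2 one-colour Agilent arrays. The members were taken by gene name: the coat genes Plin2, Plin3, Cidec and Cideb, the lipolysis genes Pnpla2, Lipe, Mgll and G0s2, and the lipoprotein lipase genes Angptl4 and Lpl. They were represented by 16 of 55681 non-control probes, and 10 of 23858 named genes on the array. The cholic acid array held RNA of segments kept for 2 h with 0.5 µM cholic acid, a primary bile acid made in the liver, and the vehicle array RNA of segments kept as long with 0.05% DMSO and 0.25% ethanol. Both came from wild-type male mice. The labels give neither strain, age, number of mice nor position along the gut, and they name the solvent for the vehicle alone. The series' title asks for candidate PPARα target genes that depend on bile acid, and several of the members are known PPAR targets. With 1 array per condition, nothing below was repeated, and no p-value or error between animals can be given. The number of arrays limits the precision.

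Enterocytes pack absorbed fat into triacylglycerol, which leaves the cell in chylomicrons or is held for a time in cytosolic droplets. Droplets are covered by perilipins and enlarged by CIDE proteins. Their triacylglycerol is taken apart stepwise, by adipose triglyceride lipase (Pnpla2), hormone-sensitive lipase (Lipe) and monoacylglycerol lipase (Mgll), while G0s2 inhibits the first of these. Outside the cell, lipoprotein lipase (Lpl) acts on circulating lipoproteins and is inhibited by the secreted protein Angptl4.

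Most of these genes had lower signals on the cholic acid array, by less than 2-fold, and Mgll alone among those measured on both arrays was higher. Of the 16 member probes, both arrays measured 11 well above background, 1 was so with cholic acid only and 4 were on neither. Over all 55681 non-control probes, 24449 reached that level with cholic acid, 24203 with vehicle and 22613 (40.6%) with both. Before any scaling, 9 of the 11 member probes measured on both were dimmer on the cholic acid array. Genes in general were dimmer there too, with an unscaled median log2 difference of -0.43 over all genes (cholic acid minus vehicle). The arrays differed in overall brightness, with a 75th percentile signal of 741 for cholic acid and 1060 for vehicle among probes well above background on both, and this percentile was subtracted on the log2 scale. After it, 8 members had a value on both arrays, of which 7 were below 0 (87.5%, against 42.6% of 12859 genes measured). The member median was -0.38, against 0.08 for all genes (log2 difference, cholic acid minus vehicle). The median of the 1000 genes nearest in signal ran from -0.11 for Plin2 to 0.27 for Mgll. Signal level is therefore mixed into the contrasts with all genes. At the 2-fold limit, 0 of 8 members were higher, against a background of 6.57% of genes, and 0 of 8 were lower, against 2.05%. At 1.5-fold, 3 members were lower, against 7.71% of all genes, and 1 was higher, against 17.8%. In bulk samples, fewer cells of a type and less RNA per cell cannot be told apart.

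**Figure D1:**
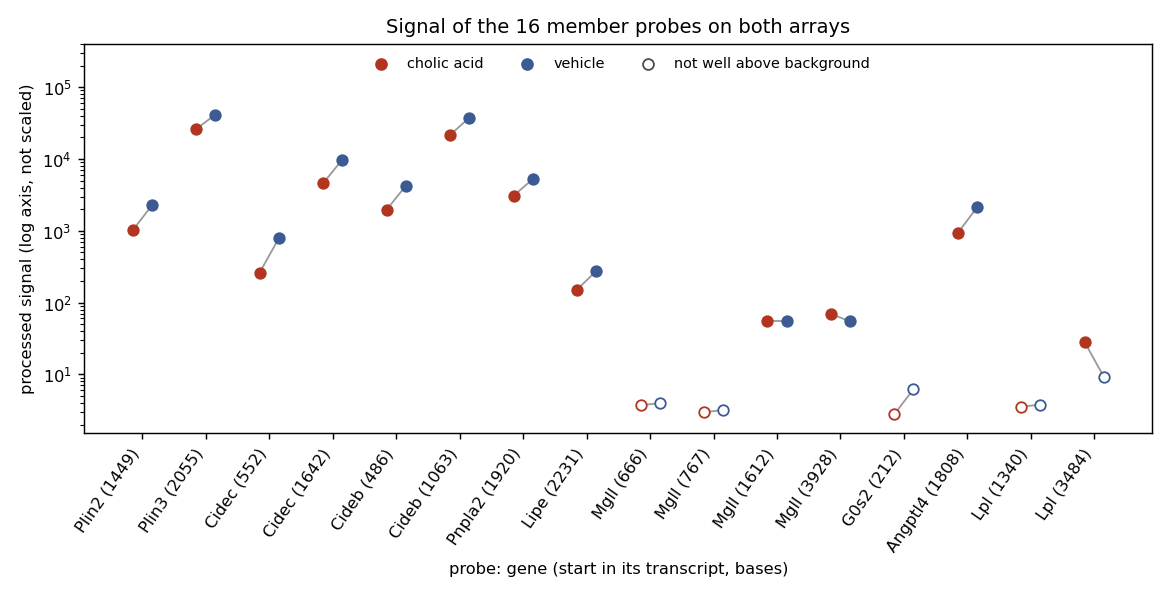
Processed signal (log axis, not scaled between arrays) of the 16 member probes, with cholic acid at left and vehicle at right of each pair and open points for signals not well above background. The 2 measured Mgll probes were level or brighter with cholic acid, while the other 9 measured probes were dimmer.

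Among the coat genes, Plin2, the perilipin found on the droplets of most cell types, had a signal of 1020 ± 102 on the cholic acid array and 2250 ± 225 on the vehicle array, where the error is that of the scanner software for a spot. After scaling it was 1.54-fold lower (log2 difference -0.62, software error 0.20). Plin3, a soluble perilipin that coats newly formed droplets, had 26100 ± 2610 with cholic acid and 41600 ± 4160 with vehicle, and was 1.11-fold lower (-0.16). The size of the difference was 3.06 times that software error for Plin2 and 0.765 times for Plin3. The probe of Plin2 lies on the minus strand at chr4:86302847-86302906 and that of Plin3 on the minus strand at chr17:56418429-56418488, both in mm9 as in the files. No exon map of that build was used here.

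Cidec, also called FSP27, which promotes the fusion of droplets, had the lowest difference of the members. Its probe nearer the 5′ end had a signal of 262 ± 26.3 with cholic acid and 784 ± 78.5 with vehicle. This probe was 2.09-fold lower, the only member probe past 2-fold. Its probe nearer the 3′ end had 4600 ± 460 with cholic acid and 9790 ± 979 with vehicle, and was 1.49-fold lower. The mean of both was 1.76-fold lower (-0.82), with both going the same way. Cideb, a relative that works in the loading of lipid into lipoproteins, had 1970 ± 197 and 21700 ± 2170 at its 5′ and 3′ probes with cholic acid, against 4230 ± 423 and 37400 ± 3740 with vehicle. Its probes were 1.501-fold and 1.205-fold lower, and their mean 1.34-fold lower (-0.43). The 5′ probes of these relatives are printed because they gave the larger difference of each gene. Both have a reading frame without a stop, and the lines give them 5′ to 3′ as in the files, with no part in capitals.
Cidec probe, minus strand, mm9 chr6:113378116-113378175: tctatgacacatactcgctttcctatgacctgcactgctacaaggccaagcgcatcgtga
Cideb probe, minus strand, mm9 chr14:56373658-56373717: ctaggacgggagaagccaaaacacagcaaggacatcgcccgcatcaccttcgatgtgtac
Between any pair of member probes of different genes, the longest run of bases in common was 9.

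The probes of Cidec, Cideb and Mgll differed with their place in the transcript. In all 3 genes the 5′ probe had the lower difference, by -0.49 for Cidec, -0.32 for Cideb and -0.33 for Mgll on the log2 scale. Over 1738 transcripts with measured probes at least 300 bases apart, the median of the same quantity was 0.10, its quartiles were -0.18 and 0.38, and 41.6% were below 0. The part of probe position in these values was not tested.

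Of the lipolysis genes, Pnpla2, which removes the first fatty acid from triacylglycerol, had a signal of 3080 ± 308 on the cholic acid array and 5230 ± 523 on the vehicle array. It was 1.19-fold lower (-0.25). Lipe, which acts mainly on diacylglycerol, had 152 ± 15.5 with cholic acid and 274 ± 27.5 with vehicle, and was 1.26-fold lower (-0.33). Both differences were small, at 1.21 and 1.62 times the software error, and they lay 0.09 apart. The Pnpla2 probe lies on the plus strand at chr7:148645928-148645987 and the Lipe probe on the minus strand at chr7:26165828-26165887 (mm9).

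Mgll, which cleaves monoacylglycerol and breaks down the endocannabinoid 2-arachidonoylglycerol, went the other way. One of its probes had 55.6 ± 6.25 with cholic acid and 55.1 ± 6.29 with vehicle, and the other 69.5 ± 7.66 with cholic acid and 54.7 ± 6.48 with vehicle. The unscaled ratios of cholic acid to vehicle were 1.01 and 1.27. After scaling the probes were 1.44-fold and 1.82-fold higher and their mean 1.62-fold higher (0.70). These were dim probes, and the 1000 genes nearest to Mgll in signal had a median difference of 0.27 with a robust SD of 0.53. A further 2 Mgll probes, designed on another transcript record, were not well above background on either array, at 3.70 and 2.96 with cholic acid and 3.98 and 3.19 with vehicle. The measured Mgll probes lie on the plus strand at chr6:88775976-88776035 and chr6:88778292-88778351 (mm9). The difference of Mgll exceeded that of Lipe by 1.03 and that of Cidec by 1.51, quantities that a shift of a whole array leaves as they are.

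G0s2, the protein inhibitor of adipose triglyceride lipase, did not reach that level on either array, at signals of 2.79 with cholic acid and 6.22 with vehicle. No fold is given for it. Its probe lies on the minus strand at chr1:195098925-195098984 (mm9).

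In the lipoprotein lipase axis, Angptl4 had a signal of 937 ± 93.8 on the cholic acid array and 2110 ± 211 on the vehicle array. It was 1.57-fold lower (-0.65, software error 0.20), close in size to Plin2. Its probe lies on the minus strand at chr17:33911880-33911939 (mm9). One Lpl probe was well above background with cholic acid alone, at 27.8 ± 4.16, against 9.20 ± 3.43 with vehicle. After scaling, and set against the lowest signal well above background on the vehicle array, 14.6, this gave a bound of 2.72-fold higher with cholic acid. The bound leaves out the error of the spot, and the probe passed the filter only through the array where it was brighter. That bound holds for this scaling only, and another scaling of the arrays would move it. The other Lpl probe was at the software's surrogate level on both arrays, at 3.53 with cholic acid and 3.80 with vehicle, so the bound rests on 1 dim probe of 2. The brighter Lpl probe lies on the plus strand at chr8:71430267-71430326 (mm9).

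Placed among all 12859 genes, Cidec stood at percentile 3.60 of the differences, Angptl4 at 6.19 and Plin2 at 6.84. Among the 1000 genes nearest in signal, their percentiles were 5.0, 9.1 and 9.9. Cideb stood at 12.9 of all genes and 17.6 of its nearest, and Lipe at 17.5 and 17.2. Pnpla2 (22.9 and 35.3) and Plin3 (29.6 and 41.0) lay nearer the middle. Mgll stood at 86.4 of all genes and 78.1 of its nearest. Near Cidec, Angptl4 and Plin2 in signal, the median difference was -0.11 with a robust SD of 0.37, against the 0.27 given for the dimmer neighbours of Mgll. For 227 probes spotted at least 5 times, the spot SDs within each array were combined. The resulting SD of a single-spot log2 difference between the arrays had a median of 0.11. It was 0.31 or less for 90% of these probes. Neither that spread nor the software error says how much mice or segments vary.

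**Figure D2:**
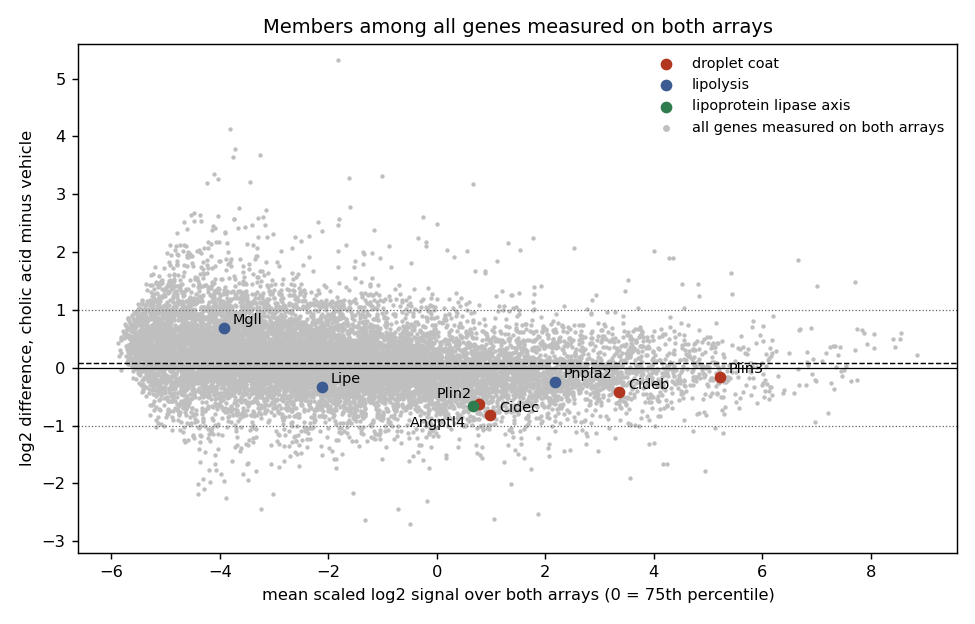
Log2 difference (cholic acid minus vehicle) against mean scaled log2 signal for 12859 genes in grey and the 8 members measured on both arrays in colour. The dashed line is the median of all genes (0.08) and the dotted lines mark 2-fold: all 8 members lie between the dotted lines, with Cidec lowest (-0.82) and Mgll highest (0.70).

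The starts of the genes were compared in RefSeq sequence of GRCm38.p6, from 250 bases before to 50 after each start, for 8 members (11 starts). The starts of Angptl4 and Lpl were not analysed here. PPARα with its partner RXR is known to bind a pair of AGGTCA repeats 1 base apart, and the bile acid receptor FXR an inverted pair, so these letters were searched on both strands. AGGTCA alone was in 1 of 11 member starts, that of Plin2, and in 16.3% of all 32851 starts. The repeat AGGTCANAGGTCA was in 0 of 11 and in 0.0396% of all starts, and AGGTCANTGACCT in 0 of 11 and in 0.00913%. The TATA box letters TATAAA were in 1 of 11, that of Cideb, and in 13.6% of all. The Plin2 match begins 218 bases before the start, on the opposite strand. A match describes letters in this window, not a bound site. The starts of Plin2 and Cidec, 2 coat genes with the lowest differences, are given with AGGTCA in either orientation in capitals.
Plin2, minus strand, GRCm38.p6 chr4:86670010-86670309: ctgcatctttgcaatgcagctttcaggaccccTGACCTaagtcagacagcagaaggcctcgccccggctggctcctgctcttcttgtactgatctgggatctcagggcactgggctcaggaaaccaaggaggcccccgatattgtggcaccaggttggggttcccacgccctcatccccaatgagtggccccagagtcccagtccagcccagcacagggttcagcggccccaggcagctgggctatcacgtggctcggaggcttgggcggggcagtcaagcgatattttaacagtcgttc
Cidec, upstream start, minus strand, GRCm38.p6 chr6:113435711-113436010: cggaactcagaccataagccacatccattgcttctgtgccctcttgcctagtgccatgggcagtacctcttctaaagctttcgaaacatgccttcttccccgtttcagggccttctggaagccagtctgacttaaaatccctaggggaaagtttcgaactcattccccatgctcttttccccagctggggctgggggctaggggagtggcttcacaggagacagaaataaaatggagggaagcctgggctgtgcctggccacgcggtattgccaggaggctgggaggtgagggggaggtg
Cidec, downstream start, minus strand, GRCm38.p6 chr6:113434715-113435014: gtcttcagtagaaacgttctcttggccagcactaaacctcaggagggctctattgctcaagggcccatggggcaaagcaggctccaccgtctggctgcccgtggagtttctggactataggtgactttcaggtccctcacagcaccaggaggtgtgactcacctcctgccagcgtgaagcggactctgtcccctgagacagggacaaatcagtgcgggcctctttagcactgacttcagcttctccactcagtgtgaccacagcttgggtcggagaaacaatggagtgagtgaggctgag
The starts of Mgll had 70.0% and 72.3% G and C, those of Cidec 56.3% and 55.7% and that of Cideb 48.0%, against a median of 52.7% over all starts. The other starts had 66.7% (G0s2), 65.3% (Pnpla2), 60.0% and 61.0% (Lipe), 60.7% (Plin2) and 59.3% (Plin3).

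Other genes of the same pathways had medians on the same side as the members. Of other droplet proteins and factors of droplet formation, 11 of 17 were measured on both arrays, with 9 below 0 and a median of -0.42. Bscl2, which encodes seipin, was 2.06-fold lower, from dim signals of 24.8 with cholic acid and 73.2 with vehicle, and 0 were at least 2-fold higher. The perilipins Plin1, Plin4 and Plin5 and the CIDE gene Cidea were not well above background on either array. In triacylglycerol synthesis 10 of 14 were measured, with 7 below 0, 0 at least 2-fold apart and a median of -0.29. The acyltransferases Agpat3 (-0.79) and Dgat2 (-0.69) had the largest differences there.

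Among other intracellular lipases and their cofactors, 12 of 16 were measured, with 11 below 0 and a median of -0.52. The lysosomal acid lipase gene Lipa was 2.14-fold lower, with signals of 303 with cholic acid and 926 with vehicle. Abhd5, the activator of adipose triglyceride lipase and so the counterpart of G0s2, was at -0.49 over 3 probes. Partners and relatives of lipoprotein lipase had 8 of 10 measured genes below 0 and a median of -0.23, with Apoc2, its activator, at -0.94 and Apoc1 at 0.81. Genes of monoacylglycerol and endocannabinoid metabolism had 3 of 4 below 0 and a median of -0.35, led by the amide hydrolase Faah (-0.82). PPAR receptors and other PPARα targets had 13 of 15 below 0, a median of -0.32 and 1 at least 2-fold lower, the carnitine carrier gene Slc25a20 (2.67-fold). The receptor genes Ppara (-0.22), Ppard (-0.35) and Pparg (-0.36) differed little. The medians of these 6 lists, between -0.52 and -0.23, stand beside 0.08 for all genes and say nothing particular about any list.

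**Figure D3:**
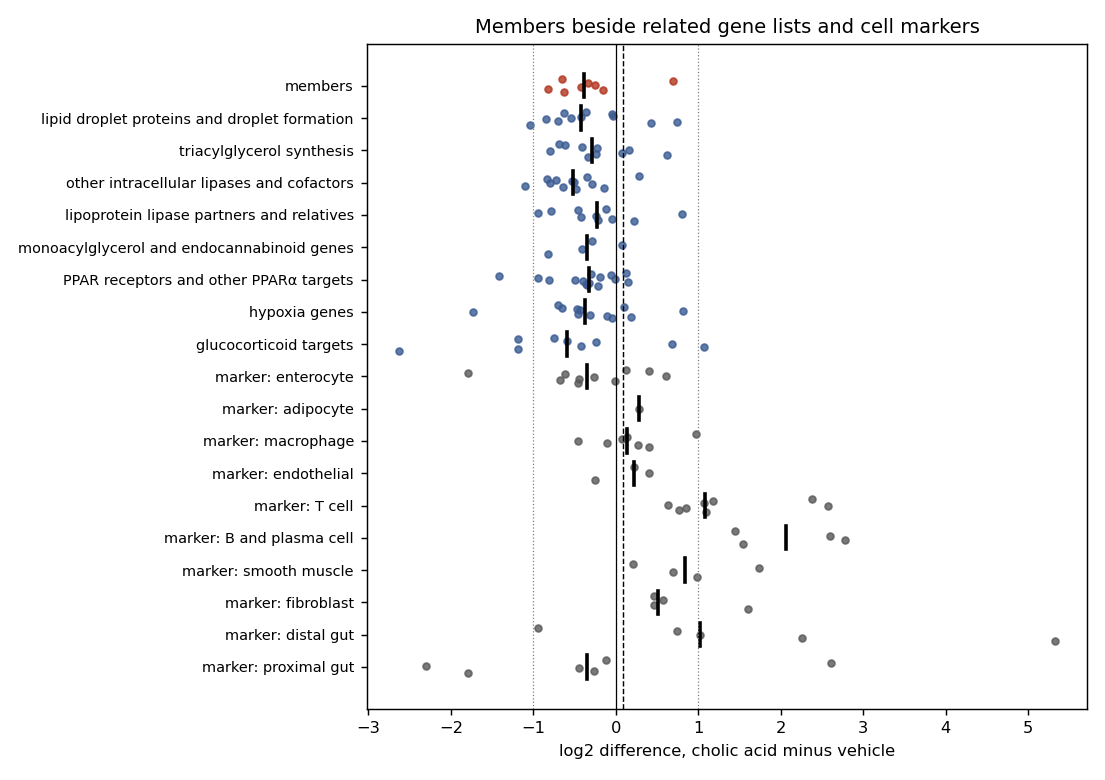
Log2 differences (cholic acid minus vehicle) of the members (red), related gene lists (blue) and cell markers (grey), 1 point per gene measured on both arrays, with a bar at each median and a dashed line at the median of all genes (0.08). The member median of -0.38 lies within the range of the related lists, and the lymphocyte lists lie highest, at 1.08 and 2.07.

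Cell markers moved between the arrays as well. Markers of enterocytes were well above background for 10 of 10 genes on both arrays, with a summed signal of 1183 with cholic acid and 1102 with vehicle, in multiples of the 75th percentile signal, and a median difference of -0.35, close to that of the members. T cell markers had 8 of 8 detected on both arrays, sums of 24.8 with cholic acid and 12.2 with vehicle, and a median of 1.08. B and plasma cell markers had sums of 1.72 and 0.274, a median of 2.07, and 6 of 6 detected with cholic acid against 4 of 6 with vehicle. Their part in the member values was not tested. Adipocytes are a known source of Plin1, Cidec, Lipe, G0s2 and Lpl, and of their 7 markers 1 was detected with cholic acid and 2 with vehicle. Fabp4 was dim but detected on both arrays, at signals of 25.6 with cholic acid and 30.1 with vehicle, and 1.22-fold higher after scaling. Adipoq, Lep, Retn, Cfd and Plin1 were not well above background on either array, and Adrb3 was detected with vehicle alone. The summed signal over all 7, undetected ones included, was 0.0736 with cholic acid and 0.0604 with vehicle. Macrophage markers had 8 of 9 detected on each array, a median of 0.14 and sums of 1.69 with cholic acid and 1.96 with vehicle. Endothelial markers had 3 of 7 detected on each array, and sums of 0.709 with cholic acid and 0.560 with vehicle, with Cdh5, Tek, Cldn5 and Emcn not well above background on either. Smooth muscle (median 0.83, sums of 0.990 with cholic acid and 0.788 with vehicle) and fibroblast markers (median 0.51, sums of 0.725 and 0.435) were each detected for 4 of 6 genes on each array. Distal gut markers had a median of 1.01 and sums of 4.72 with cholic acid and 2.67 with vehicle, with Cubn alone below 0 (-0.94). Proximal gut markers had a median of -0.35 and sums of 243 with cholic acid and 342 with vehicle. The enterocyte and proximal gut lists share Apoa4, Fabp1 and Lct. Marker genes at least 2-fold higher were Cd2, Lat, Gzmb, Cd3d and Cd8b1 of T cells, Cd79b, Pou2af1, Cd79a and Mzb1 of B and plasma cells, Cnn1 of smooth muscle, Dcn of fibroblasts, Fabp6, Slc10a2 and Gcg of the distal gut and S100g of the proximal gut. Those at least 2-fold lower were Apoa4 and Onecut2. Whether the segments came from the same place along the gut is not given, so position and treatment cannot be told apart.

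The size of each difference depended on how the arrays were scaled. Under 13 other settings, Plin2, Plin3, Cidec, Cideb, Pnpla2, Lipe and Angptl4 were below 0 in all 13 and below the median of all genes in all 13. Mgll was above that median in all 13 and above 0 in 12, the exception being scaling on the spike-in controls, where it was at -0.20. The percentile over all probes, median centring, spike-in scaling and no scaling each shift a whole array. They could not change a place relative to the median of all genes, so the count of 13 overstates the agreement there. For members with 1 measured probe, the other filters, the brightest probe and no spots left out gave the same difference as reported. The count of 13 therefore overstates the agreement below 0 as well. Cidec ran between -1.71 and -0.57, Angptl4 between -1.55 and -0.62 and Plin2 between -1.52 and -0.59. Measured from each setting's own median over all genes, Cidec lay between -1.22 and -0.65, and its percentile between 2.33 and 8.35.

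**Figure D4:**
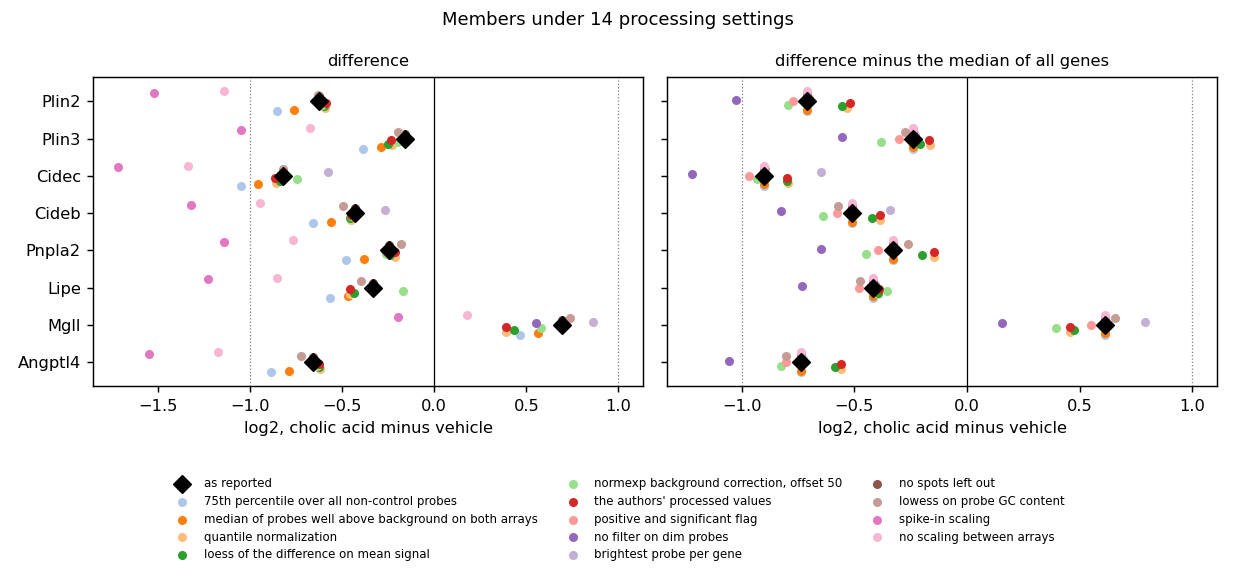
Log2 difference (cholic acid minus vehicle) of the 8 measured members as reported (black diamonds) and under 13 other settings (coloured points), as such at left and relative to the median of all genes of each setting at right. At right, 7 members lie below 0 in every setting shown and Mgll above 0. Settings that only shift a whole array cannot differ there from the values as reported.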

How the data were processed

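Per the file headers, the authors deposited spot intensities from Agilent Feature Extraction 10.7.1.1 (design 028005, probe positions on mm9), while 9.5.1.1 stands in the submitters' processing notes. The software had subtracted background from each intensity, detrended it and put a surrogate in place of dim values, and flags per spot stand in other deposited columns. RNA was amplified and labelled with Cy3, per the labels' protocols. Control spots and outlier spots (119 with cholic acid, 124 with vehicle) were left out. No spot was saturated. Log2 signals were averaged per probe, and each array's 75th percentile was subtracted, taken over the 22613 probes (40.6%) that had the well-above-background flag on both arrays, since these were a minority. Genes are means of such probes, named by accession from RefSeq GRCm38.p6, then by symbol or synonym, or as in the files, leaving 22702 probes unnamed. Markers and lists follow the same rule. Named genes are all members, and of each list those at least 2-fold apart or otherwise the 2 with the largest difference. Abhd5, the receptor genes and genes named as not well above background were named after their values were seen. Some of what the rule covers is not reported here. Members and lists were chosen with earlier results of these data known. Python 3.11.15 with statsmodels 0.14.6, and limma 3.58.1 for normexp, were used. The scaling was tested on simulated data. The authors' table of processed intensities, with a median of 10.09 on each array and a log2 correlation of 0.9998 with the scanner signal, was an alternative. It states no scale or normalization. Other alternatives were 4 scalings, normexp with an offset of 50, other filters and fold limits, the brightest probe and no spots left out. GC content, spike-in and no scaling were added after seeing the data.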

Additional observations from a re-analysis of the deposited data

How the results depend on the processing

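As reported, 0 of the 8 members that both arrays measured passed 2-fold upward and 0 downward. Lpl, measured with cholic acid alone, has its bound of 2.72-fold higher, which leaves out spot error, outside that count. With a 1.5-fold limit 1 was higher (Mgll) and 3 were lower (Cidec, Angptl4, Plin2), and with a 3-fold limit none. With the positive and significant flag, or with no filter on dim probes, 1 was higher (Lpl, at log2 differences of 2.11 and 1.26). With the percentile over all non-control probes 1 was lower (Cidec), with no scaling 3 (Cidec, Angptl4, Plin2) and with 7 spike-in probes 7, all measured members but Mgll. Of the 12859 genes measured, 540, 1376 and 4318 were at least 2-fold lower under these settings, in that order. The spike-ins were 0.38 brighter with cholic acid on the log2 scale. Median centring, quantile, loess, normexp, the authors' values, the brightest probe, no spots left out and GC correction called 0 in either direction. Of 104 member values under the alternatives, 30 were counted as moved. For members with 1 measured probe this meant a shift beyond the software error of a spot. For members with 2, a smaller shift also counted, such as Cideb from -0.43 to -0.27 with the brightest probe.

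Percentages in this paragraph are the share of called genes that were higher, not shares of all genes. Over all genes, 845 were at least 2-fold higher and 264 lower (76.2% higher). The same counts were 429 and 540 (44.3%) with the percentile over all probes, 553 and 393 (58.5%) with median centring, 450 and 424 (51.5%) with quantile, 502 and 381 (56.9%) with loess, 271 and 104 (72.3%) with normexp and 454 and 428 (51.5%) in the authors' values. They were 1932 and 454 (81.0%) with the positive and significant flag, 2936 and 628 (82.4%) with no filter, 108 and 4318 (2.44%) with spike-ins and 205 and 1376 (13.0%) with no scaling. The median of all genes was -0.15, -0.05, -0.06, -0.04, 0.19, -0.06, 0.15, 0.40, -0.81 and -0.43 in that order. No paired analysis was possible because there was 1 array per condition. Signal over background limits G0s2, which has no fold, Lpl, whose bound rests on 1 probe, and Mgll, whose 2 measured probes were dim.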

Other observations

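Angptl4 and Plin2 are also known to respond to low oxygen, and Angptl4 to glucocorticoids, so lists of both kinds were described. Over all genes, 42.6% were below 0, 2.05% at least 2-fold lower and 6.57% at least 2-fold higher. Of hypoxia genes, 12 of 12 were measured on both arrays, with 9 below 0, a median of -0.37, 0 at least 2-fold higher and 1 lower. That 1 was Ankrd37, 3.31-fold lower, with signals of 112 with cholic acid and 530 with vehicle. Hilpda, a droplet protein gene that low oxygen induces, was higher by 1.68-fold, from dim signals of 29.97 with cholic acid and 25.59 with vehicle. Of glucocorticoid targets, 9 of 9 were measured, with 7 below 0, a median of -0.59, and 3 at least 2-fold lower: the kinase gene Sgk1 (6.16-fold), the metallothionein gene Mt2 (2.27-fold) and Tsc22d3 (2.27-fold). The immunophilin gene Fkbp5 was 2.09-fold higher, at 174 with cholic acid and 119 with vehicle.

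Mogat1, Ces1d and Ces1g, an acyltransferase gene and carboxylesterase genes, were well above background with vehicle alone, as was Adrb3 among the adipocyte markers.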
